A study of Mus musculus with 2 samples.

Results

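Foxp3-negative CD4 T cells are taken here as droplets with the T cell receptor complex and Cd4 but no Foxp3 or CD8 transcript, in immune cells of a mouse melanoma. Members were selected on measured transcripts. A barcode was a member if it had at least 1000 gene UMIs (unique molecular identifiers, counted once per captured mRNA), 500 genes and at most 10% mitochondrial UMIs. It also needed at least 3 UMIs over the CD3 genes Cd3d, Cd3e and Cd3g, at least 1 of Cd4, 0 of Cd8a and Cd8b1, 0 of Foxp3, and less than 1000 CPM over the macrophage genes C1qa, C1qb and C1qc. This gave 82 members among 4236 kept cells, 1.94% (1.54–2.40, exact Clopper-Pearson interval at 95%). Cells gated in the same way but with at least 1 Foxp3 UMI numbered 50, and cells with CD8 and neither Cd4 nor Foxp3 numbered 228.

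CD4 helper T cells recognise peptides on MHC class II through the T cell receptor and act largely through other cells. They carry CD40 ligand and other ligands of the TNF family that engage dendritic cells, macrophages and B cells, and they secrete cytokines such as interferon gamma. Regulatory T cells, marked by the transcription factor Foxp3, share the CD4 receptor and restrain these responses. In tumours both kinds are found beside CD8 T cells, the main killers of tumour cells.

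The tumour was B78ChOVA, a transplanted melanoma line, injected in Matrigel under the skin of the flank and harvested after 16 days. Live sections were marked region by region with DNA barcodes by ZipSeq, then dissociated, sorted for immune cells and encapsulated in 10x Genomics droplets. The 2 samples are libraries of the same cells, 1 for mRNA and 1 for spatial barcodes, and all 82 members had UMIs in both. The strain of the mice, the number of tumours and the regions behind the spatial barcodes ZC1, ZC2 and ZC3 are not stated in the sources used here. With 1 library of cells there is no replicate, so no test was made. All intervals, given at 95%, cover counting error only and not the spread between tumours, and "higher" or "lower" below describes these cells alone.

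Members were the shallowest of the 3 sets. They held 1253 to 38173 UMIs with a median of 5372.5, against medians of 11624.5 in Foxp3-positive cells and 8110.5 in CD8 T cells. CD3 UMIs per member ran from 4 to 176 with a median of 22.5, so none lay at the limit of 3, and 0 cells met every other condition with 1 or 2 CD3 UMIs. Cd4 was the tightest limit: 35 members had exactly 1 Cd4 UMI, 19 had 2, and the highest had 23. A further 80 cells with CD3 had no Cd4, CD8 or Foxp3 UMI and stayed outside, 13 of them with Cd40lg. On the macrophage side the member nearest the limit had 907 CPM of C1q genes, and the 47 cells kept out by C1q alone began at 1105 CPM and had a median of 10248 CPM.

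The limit of 0 Foxp3 UMIs depends on depth. Of the 50 Foxp3-positive cells, 10 had a single Foxp3 UMI, and the median was 3. Brought to 1000 UMIs, a Foxp3-positive cell would keep a Foxp3 UMI in 30.9% of random draws. Among the members, 34 had a UMI of Il2ra or Ikzf2, genes that regulatory T cells express highly, and 6 had 4 or more of Ikzf2. How many members were regulatory T cells with an unseen Foxp3 transcript was not tested. Counts of genes were therefore repeated with the 48 members that had neither.

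Of the 82 members, 9 also carried the transcripts of a myeloid cell. They held 11 to 68 UMIs over 5 myeloid genes, Csf1r and Cd68 among them, while the other 73 members held at most 2, with 57 at 0. The same 9 cells held 25 to 1009 UMIs of 4 class II genes and 5 to 330 of lysozyme, Lyz2, against at most 27 and at most 6 in the others. Their median depth was 20021 UMIs against 4836. These barcodes are called co-captured; the rule was set with the data already seen. Foxp3-positive cells had 9 such barcodes of 50 and CD8 T cells 20 of 228. The 10 macrophage genes summed to 2967 CPM in the co-captured members, 284 CPM in the other 73 and 17105 CPM in free RNA, and the 11 dendritic cell genes to 18481, 344 and 13199 CPM. Results below name the value without co-captured cells where it ends a call or moves a value by over 1.5 times.

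**Figure D1:**
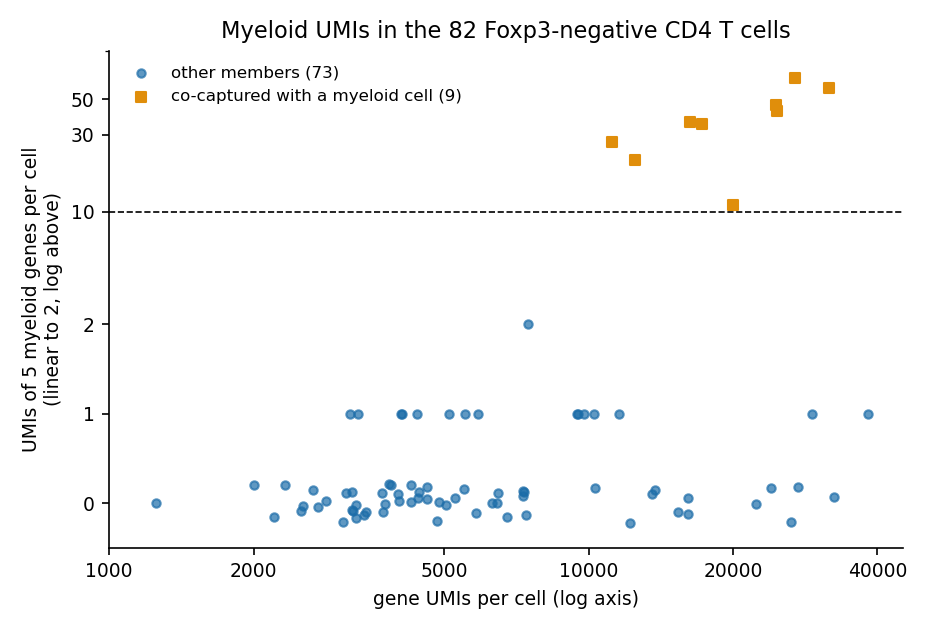
Each point is 1 of the 82 Foxp3-negative CD4 T cells, placed by its gene UMIs (log axis) and its UMIs of 5 myeloid genes (linear to 2, log above, points at 0 spread vertically for display). The 9 co-captured cells lie at 11 to 68 myeloid UMIs, above the dashed line at 10, and the other 73 lie at 2 or below.

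The label was checked on genes the gate did not use. Trac, the constant part of the receptor alpha chain, was found in 81 of 82 members at 977 CPM. Zbtb7b, the factor that directs thymocytes to the CD4 lineage, stood at 40.4 CPM in members, 28.0 in Foxp3-positive cells and 6.85 in CD8 T cells, 5.90 times the CD8 level (3.31–10.7), or 12.3 times without co-captured cells. Runx3, a factor of the CD8 lineage, did not separate the sets in this way, at 181, 99.3 and 157 CPM. Eomes, a factor of CD8 T and NK cells, had 2 UMIs in 1 member against 61.7 CPM in CD8 T cells. Markers of gamma delta T cells were scarce: Tcrg-C2 and Tcrg-C4 were at 0 and Trdc had 6 UMIs in 2 cells. Of 8 NK cell genes 4 were at 0, Ncr1 among them. The 8 summed to 1349 CPM in members and 685 in CD8 T cells, or 108 and 231 CPM without co-captured cells, and Tyrobp and Fcer1g, which myeloid cells also express, made up 599 and 744 CPM of the members' sum. Of 6 genes of NKT and innate-like T cells 3 were at 0, Trav11 among them, and Il2rb made up 281 of their 283 CPM. The 7 melanoma genes summed to 5.22 CPM, with Pmel at 0. Cd40lg, the ligand for CD40, was found in 26 of 82 members, 31.7%, and in 2 of 50 and 2 of 228 cells of the other sets. It was at 0 in 2858 myeloid cells without CD3, whose median depth was 25796 UMIs. The other 56 members had no Cd40lg UMI; their median depth was 4502 UMIs, against 9605 in members with one.

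A gene was compared where the 2 sets together held 30 UMIs or more and 3 were expected in the smaller one, and a ratio of 2 or more, or 0.5 or less, counts as past 2-fold. A gene at low levels mostly enters through the set in which it is high, so counts within a list describe only the genes compared. Against Foxp3-positive cells, 5725 genes were compared: 262 were past 2-fold higher in members (4.58%) and 264 lower (4.61%). Against CD8 T cells, 8152 were compared, with 411 higher (5.04%) and 498 lower (6.11%). Without the co-captured cells described above, 216 of 4585 genes were higher (4.71%) and 258 lower (5.63%) than in Foxp3-positive cells, and 339 of 7179 higher (4.72%) and 387 lower (5.39%) than in CD8 T cells. The median ratio over all genes was 0.974 against Foxp3-positive cells. Both comparisons share the members, so they are not independent. Each list was drawn up with earlier results of these data known. The shares over all genes given above are the background for each list count that sets members against Foxp3-positive or CD8 T cells.

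Of 10 ligands through which helper T cells act on other cells, 5 were past 2-fold higher in members than in Foxp3-positive cells, 2 were within 2-fold and 3 had too few UMIs to compare. Those 5 reached the limit on UMIs mainly through the members, so their number does not describe the list. The sum of the 10 was 1343 CPM in members and 1140 in Foxp3-positive cells, most of it Ltb. Tnfsf8, the ligand for CD30, had 128 UMIs in 29 members, 167 CPM (139–199), and 0 in the 50 Foxp3-positive cells, at least 43.7-fold higher with a floor of 3 counts over the set. CD8 T cells had 45 UMIs in 16 cells, 14.0 CPM (10.2–18.8), so members stood 11.9 times higher (8.42–17.1). Among the 29 members with Tnfsf8, UMIs per cell had a median of 3 and a highest value of 23, and the top cell held 18.0% of the total. Without co-captured cells the ratio to CD8 T cells was 19.8 (12.4–33.0), and 23 of the 45 CD8 UMIs lay in co-captured barcodes.

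Tnfsf11, known as RANKL and a signal to dendritic cells and osteoclasts, had 74 UMIs in 23 members, 96.6 CPM (75.8–121). Foxp3-positive cells had 3 UMIs in 2 cells, and CD8 T cells 45 UMIs in 22 cells. The ratios were 25.3 (8.32–125) and 6.89 (4.69–10.2), the second 11.5 (7.25–18.8) without co-captured cells. Cd40lg stood at 53.5 CPM (38.4–72.6) in members, 2.55 in Foxp3-positive cells and 0.623 in CD8 T cells, each of the last from 2 UMIs. Its ratios were 21.0 (5.46–179) and 85.9 (22.3–733). Cd70, the ligand for CD27, stood at 54.8 CPM in members and 8.91 in Foxp3-positive cells, a ratio of 6.15 (2.74–16.2), but at 37.7 in CD8 T cells. Lta, lymphotoxin alpha, stood at 44.4, 6.36 and 13.1 CPM in the same order. Its membrane partner Ltb did not share this pattern, at 852 CPM in members and 1082 in Foxp3-positive cells. Tnfsf4, the OX40 ligand, went the other way from CD8 T cells, at 3.91 against 16.8 CPM.

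The promoters of Tnfsf8 and Tnfsf11 are shown because both ligands were high in members. Of the 73 members without co-capture, 24 had Tnfsf8, 19 had Tnfsf11 and 10 had both; those with Tnfsf11 were deeper, with a median of 10296 UMIs against 4396. Each sequence is the 187 bases before the annotated start, 5′ to 3′ along the gene, from RefSeq on GRCm38.p6. Tnfsf8 lies at chr4:63831308-63861347 and Tnfsf11 at chr14:78277445-78308043, both on the minus strand (GENCODE vM21, GRCm38). The windows are chr4:63861348-63861534 and chr14:78308044-78308230. Capitals mark GGAAA, the core of NFAT sites, searched on both strands as GGAAA and TTTCC without overlap.
Tnfsf8: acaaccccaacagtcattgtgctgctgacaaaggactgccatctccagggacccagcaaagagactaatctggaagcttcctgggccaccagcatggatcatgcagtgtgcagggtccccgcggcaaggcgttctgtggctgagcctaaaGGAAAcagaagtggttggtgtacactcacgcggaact
Tnfsf11: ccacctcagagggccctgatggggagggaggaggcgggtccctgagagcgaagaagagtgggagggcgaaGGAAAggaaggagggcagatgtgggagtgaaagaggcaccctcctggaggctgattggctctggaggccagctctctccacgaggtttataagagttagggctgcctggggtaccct
Each window held 1 GGAAA and 0 TTTCC, and 45.1% of 32851 promoter windows of this length held at least 1 of either, so a match is common and describes the letters only. A promoter of Cd40lg was not matched in the table used.

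**Figure D2:**
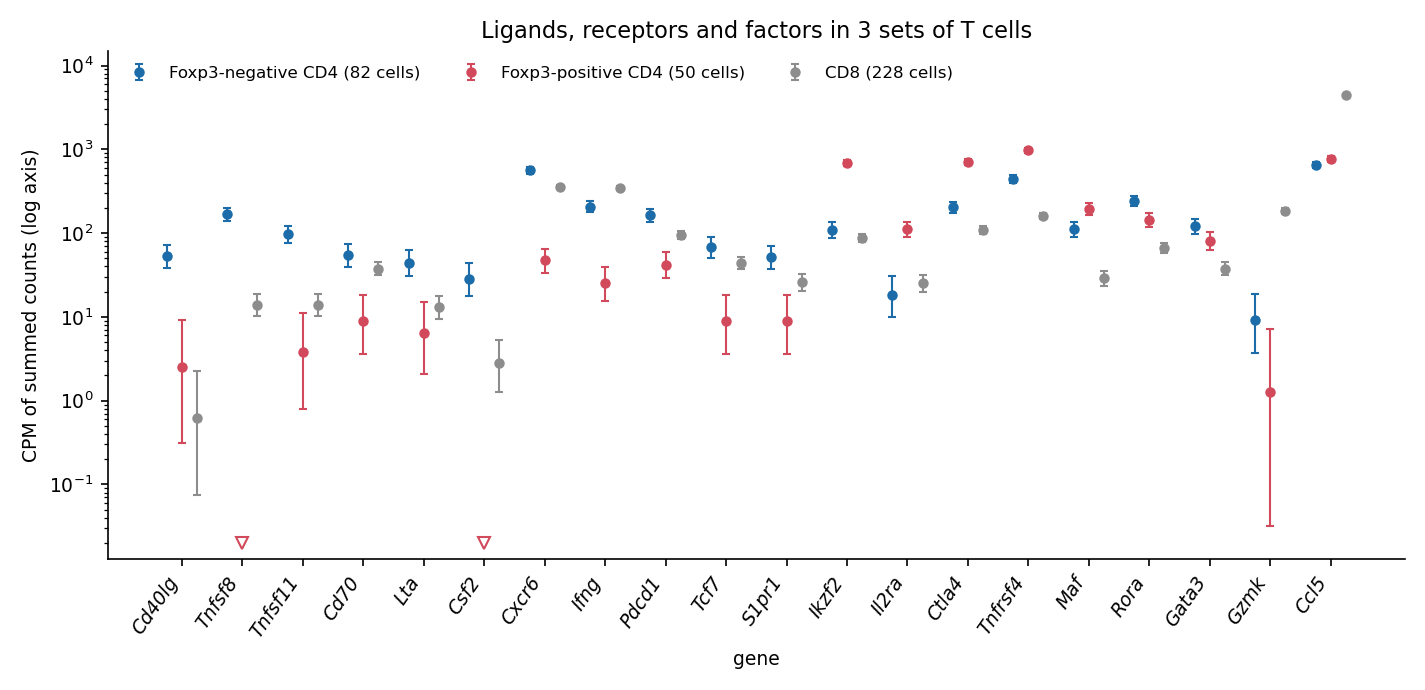
Points are CPM of counts summed over each set (log axis) for 20 genes, in Foxp3-negative CD4 (82 cells), Foxp3-positive CD4 (50 cells) and CD8 T cells (228 cells), with exact Poisson intervals at 95%, and open triangles at the bottom mark sets with 0 UMIs. Cd40lg, Tnfsf8 and Tnfsf11 are highest in Foxp3-negative cells, Ikzf2, Il2ra and Ctla4 in Foxp3-positive cells, and Gzmk and Ccl5 in CD8 T cells.

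Because members were shallow, detection was also compared at equal depth, as the share of cells expected to show a UMI over all random draws of 1000 UMIs per cell. Tnfsf8 was expected in 14.3% of members, 0% of Foxp3-positive, 1.08% of CD8 T cells and 0.264% of myeloid cells without CD3. The unthinned shares were 35.4%, 0%, 7.02% and 4.86%, and 0 of 50 allows a share of cells with a UMI of up to 6%. Tnfsf11 was expected in 7.12% of members, 0.805% and 0.916% of the other T cells and 0.00503% of myeloid cells. For Cd40lg the figures were 5.90%, 0.467% and 0.0514%. The order of the sets for these ligands was thus the same at equal depth as in CPM.

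**Figure D3:**
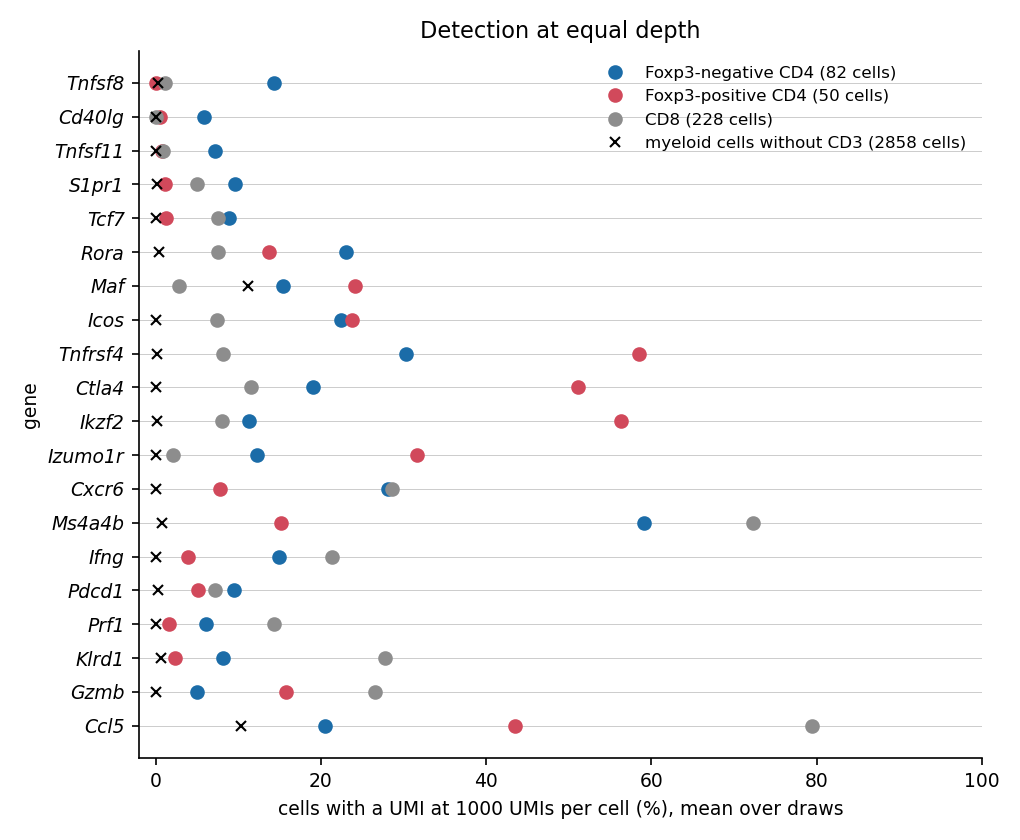
For 20 genes, points give the percentage of cells expected to have a UMI at 1000 UMIs per cell, the mean over all draws, in the 3 T cell sets and, as crosses, in 2858 myeloid cells without CD3. Tnfsf8, Cd40lg and Tnfsf11 stand out in Foxp3-negative cells (14.3%, 5.90% and 7.12%), Ikzf2 and Ctla4 in Foxp3-positive cells, and Ccl5 and Klrd1 in CD8 T cells. Crosses reach 10.3% for Ccl5 and 11.2% for Maf.

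Members had UMIs of Ifng, Csf2, Il21 and Csf1 and none of the main type 2 and type 17 cytokines. Ifng, interferon gamma, had 159 UMIs in 39 members, 207 CPM (176–242), with a median of 3 and at most 27 UMIs in a cell. Foxp3-positive cells had 25.5 CPM and CD8 T cells 347 CPM, giving ratios of 8.15 (5.10–13.7) and 0.597 (0.503–0.706). Csf2, which encodes GM-CSF, had 22 UMIs in 7 members and 0 in Foxp3-positive cells, and stood 10.2 times above CD8 T cells (4.53–25.3). Il21, a helper cytokine for B and CD8 T cells, had 16 UMIs in 7 members, 0 in Foxp3-positive cells and 4.05 CPM in CD8 T cells. Csf1, a growth factor of macrophages, stood at 41.8, 11.5 and 18.1 CPM in members, Foxp3-positive and CD8 T cells, and at 5.64 times the Foxp3-positive level without co-captured cells. Il10 was lower than in Foxp3-positive cells, at 23.5 against 59.8 CPM, from 5 members of which 1 held 44.4% of the UMIs. Tnf stood at 45.7 CPM against 69.8 CPM in free RNA and is not read further. Il2 had 3 UMIs, and Il4, Il5, Il13, Il17a and Il17f had 0.

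Factors of several helper types were found among the members, in counts summed over the set. Whether single cells held more than 1 of them was not tested. None of the 7 factors compared with Foxp3-positive cells was past 2-fold, with a median ratio of 1.44, while 5 of 10 were past 2-fold higher than in CD8 T cells and 1 lower. Without co-captured cells 1 of the 7, Runx3 at 2.21, was past 2-fold higher and 2 were lower, Maf at 0.451 and Ikzf3 at 0.450, and against CD8 T cells 4 of 10 were higher and 2 lower. Gata3, the type 2 factor that many T cells carry at low levels, stood at 121, 81.5 and 37.7 CPM in members, Foxp3-positive and CD8 T cells. Rora stood at 243, 145 and 65.7 CPM in the same order. Tbx21, the type 1 factor T-bet, stood at 24.8 CPM in members and 30.8 in CD8 T cells. Bcl6, the follicular factor, had 2 UMIs. Maf stood at 111 CPM in members and 196 in Foxp3-positive cells, close to its 103 CPM in free RNA. Ikzf3, Aiolos, stood at 36.5, 64.9 and 72.9 CPM.

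Genes downstream of type 1 signals were higher than in Foxp3-positive cells in 4 of 8 compared, against 4.58% of all genes. Of the 8, 0 were lower, and their median ratio was 1.88. The chains of the interleukin 18 receptor led them after Ifng: Il18rap stood at 73.1 against 14.0 CPM, a ratio of 5.22 (2.71–11.0), or 8.46 without co-captured cells, and Il18r1 at 167 against 58.5 CPM. Stat4, which carries the interleukin 12 signal, was 2.54 times higher. Cxcr3 differed little, at 130.5 against 136 CPM. Without co-captured cells 2 of the 8 were past 2-fold lower. On the follicular list, which also holds Tnfsf8 and Il21, Sh2d1a, the adaptor SAP, stood at 127 against 30.5 CPM and Cd200 at 60.0 against 11.5 CPM. Izumo1r, the folate receptor 4 of regulatory and follicular cells, was lower than in Foxp3-positive cells at 109.6 against 243 CPM, yet 5.33 times (3.82–7.47) its level in CD8 T cells. Cxcr5, the follicular homing receptor, had 1 UMI.

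Genes of regulatory T cells other than Foxp3 were past 2-fold lower in 9 of the 17 compared, against 4.61% of all genes. Of the 17, 1 was higher, and their median ratio was 0.478. Ikzf2, the factor Helios, had 84 UMIs in 32 members and 543 in 49 of 50 Foxp3-positive cells, 109.6 (87.4–136) against 691 CPM (634–752), a ratio of 0.159 (0.124–0.200). In members with the gene its median was 2 UMIs, against 9 in Foxp3-positive cells. Il2ra, the high-affinity interleukin 2 receptor chain, stood at 18.3 against 111 CPM, Itgae at 15.7 against 89.1, and Klrg1 at 5.22 against 40.7. Ctla4 stood at 202 against 701 CPM and Tnfrsf4, which is OX40, at 441 against 971. Both were nevertheless above CD8 T cells, which had 109 and 159 CPM. Nrp1, neuropilin 1, was the exception, 2.48 times higher in members (1.68–3.72). Without co-captured cells 13 of 17 were past 2-fold lower.

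Genes of resting and circulating T cells were higher than in Foxp3-positive cells for 3 of 8 compared, against 4.58% of all genes. Of the 8, 0 were lower, and their median ratio was 1.54. Without co-captured cells 4 were higher and 1 lower. Tcf7, the factor TCF1 of naive and stem-like T cells, had 52 UMIs in 26 members and 7 in 3 Foxp3-positive cells, 67.8 against 8.91 CPM, a ratio of 7.62 (3.45–19.9). S1pr1, the receptor for exit from tissue, stood at 52.2 against 8.91 CPM, and Il7r, the interleukin 7 receptor, at 74.4 against 34.4 CPM. Lef1, a partner factor of TCF1, pointed the other way, at 23.5 against 40.7 CPM. Ccr7, the lymph node homing receptor, stood at 58.7 against 56.0 CPM, but 3.52 times higher (1.40–10.5) without co-captured cells, where 1 member held 46.7% of its UMIs with them included. The 10 genes compared with CD8 T cells had a median ratio of 1.35.

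Inhibitory receptors stood on the median near their CD8 level and above their Foxp3-positive level, with a median ratio of 1.54 to the latter. Their sum did not follow the median. The 12 genes summed to 1165 CPM in members, below the 1251 CPM of Foxp3-positive cells, and to 1087 CPM in CD8 T cells. Pdcd1, PD-1, had 126 UMIs in 32 members, 164 CPM (137–196), against 42.0 CPM in Foxp3-positive and 94.7 in CD8 T cells, ratios of 3.91 (2.65–5.93) and 1.74 (1.40–2.14). Lag3 stood at 305, 199 and 304 CPM, Havcr2, TIM-3, at 56.1, 29.3 and 64.5, and Tox at 137, 106 and 132. Rgs16 stood at 109.6, 25.5 and 107 CPM. In all, 3 of 9 genes of this list were past 2-fold higher than in Foxp3-positive cells and 1 lower, or 5 higher and 2 lower without co-captured cells. Against CD8 T cells the median ratio over 10 genes was 1.03. At 1000 UMIs Pdcd1 was expected in 9.43% of members, 5.15% of Foxp3-positive cells and 7.12% of CD8 T cells. Lag3 was expected in 18.1%, 23.2% and 21.6%, so it was not higher in members at equal depth.

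Cxcr6, the receptor for CXCL16 that marks T cells lodged in tumours, had the highest ratio to Foxp3-positive cells among the 11 chemokine and egress receptors compared. It had 430 UMIs in 46 members and 37 in 15 Foxp3-positive cells, 561 (509–617) against 47.1 CPM (33.2–64.9), a ratio of 11.9 (8.51–17.2). CD8 T cells stood at 354 CPM. Members with Cxcr6 had a median of 6 UMIs and at most 58, and Foxp3-positive cells with it a median of 1 and at most 8. At 1000 UMIs it was expected in 28.1% of members, 7.79% of Foxp3-positive and 28.6% of CD8 T cells. Gpr183, a receptor for oxysterols, was 2.03 times and S1pr4 0.375 times the Foxp3-positive level. Ccr2 stood at 245 CPM with all members and at 68.8 without the co-captured ones, and 32 of the 33 Ccr1 UMIs came from co-captured cells. Among adhesion genes Itgb1 was 4.81 times (3.71–6.30), or 7.27 times without co-captured cells, and Itgb7 0.431 times (0.351–0.527) the Foxp3-positive level.

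Against Foxp3-positive cells 4 of 7 chemokines compared were past 2-fold higher, against 4.58% of all genes, and 0 lower. Against CD8 T cells 5 of 7 were lower, against 6.11% of all genes, and 1 higher. The median ratio to Foxp3-positive cells was 3.30, but its log2 was -0.15 with the mean of CPM per cell and -1.09 over the 3 genes left at 1000 UMIs. Xcl1, which attracts cross-presenting dendritic cells, had 201 UMIs in 15 members at 262 CPM, with 43.3% in 1 cell. Foxp3-positive cells had 2 UMIs and CD8 T cells 808 CPM. Ccl5 stood at 651 CPM in members and 4462 in CD8 T cells, a ratio of 0.146 (0.133–0.160). Foxp3-positive cells had 769 CPM of Ccl5, and at 1000 UMIs it was expected in 20.5% of members and 43.5% of them. Against CD8 T cells Ccl3 and Ccl4 stood at 0.184 and 0.237. Free RNA held 1165 CPM of Ccl4 and 625 of Ccl5, so low levels of these genes in single cells are not read as expression. Cxcl10, the interferon-induced ligand of CXCR3, stood at 510.2 CPM, with 48.6% in 1 cell and 182 CPM once co-captured cells were left out.

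Of 11 cytotoxic genes compared with Foxp3-positive cells 9 were past 2-fold higher and 1 lower, the latter Gzmb, which was within 2-fold without co-captured cells. Of the 9, 4 were at 0 in Foxp3-positive cells and could be compared only through the members. Of 15 compared with CD8 T cells 3 were higher and 6 lower. Prf1, perforin, had 166 UMIs in just 10 members, 217 CPM (185–252), against 12.7 and 350.1 CPM. Nkg7 stood at 1392, 689.8 and 2289 CPM, but at 1000 UMIs it was expected in 43.2% of members and 43.5% of Foxp3-positive cells. The granzymes differed among themselves. Gzmb stood at 74.4 CPM in members, 155 in Foxp3-positive and 829 in CD8 T cells, Gzmk at 9.13 CPM against 185 in CD8 T cells, and Gzma had 1 UMI. Gzmd and Gzme were at 0 in all Foxp3-positive and CD8 T cells, yet had 173 and 135 UMIs in members, of which 87.3% and 81.5% came from 1 cell. Klrd1, the CD94 receptor, stood at 198 CPM and was 3.80 times the Foxp3-positive level, or 31.3 times without co-captured cells, from 142 against 4 UMIs. The ratio of Klrc1, its NKG2A partner, was at least 21.9, from 64 UMIs in 9 members against 0.

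Of 9 costimulatory receptors compared with Foxp3-positive cells 1 was past 2-fold higher and 2 lower, and against CD8 T cells 3 of 9 were higher and 0 lower. Icos stood at 180.1 CPM in members, 246 in Foxp3-positive and 63.2 in CD8 T cells, 2.85 times the CD8 level (2.28–3.55), and it was expected in 22.5%, 23.8% and 7.36% of cells at 1000 UMIs. Cd28 stood at 277, 160.4 and 159 CPM, and Cd226, an activating receptor for nectin-family ligands, was 3.81 times the Foxp3-positive level. Within the receptor complex Cd247, the CD3 zeta chain, stood at 297 CPM, 2.72 times the Foxp3-positive and 2.78 times the CD8 level.

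Cell cycle genes were lower in members than in Foxp3-positive cells, and less clearly so than in CD8 T cells. Of 12 compared with Foxp3-positive cells 7 were past 2-fold lower, against 4.61% of all genes, and 0 higher, with a median ratio of 0.456. Against CD8 T cells 5 were lower, against 6.11% of all genes, and 0 higher. The median ratio of the 12 to CD8 T cells was 0.636, or 0.852 without co-captured cells. Rrm2, the ribonucleotide reductase subunit of S phase, had 5 UMIs against 114 in Foxp3-positive cells, a ratio of 0.0450 (0.0143–0.108). Mcm5, a replication helicase subunit, stood at 39.1 against 125 CPM and Mki67 at 97.9 against 233, with 42.7% of the members' Mki67 in 1 cell. At 1000 UMIs Mki67 was expected in 2.98% of members and 10.3% of Foxp3-positive cells. Members were also the shallower set, as given above, and the part of depth in this difference was not tested. Glycolysis genes showed no such gap, with 0 of 12 past 2-fold and a median ratio of 0.886. Genes of the type I interferon response were past 2-fold higher than in CD8 T cells in 5 of 9, but in 2 of 6 without co-captured cells.

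**Figure D4:**
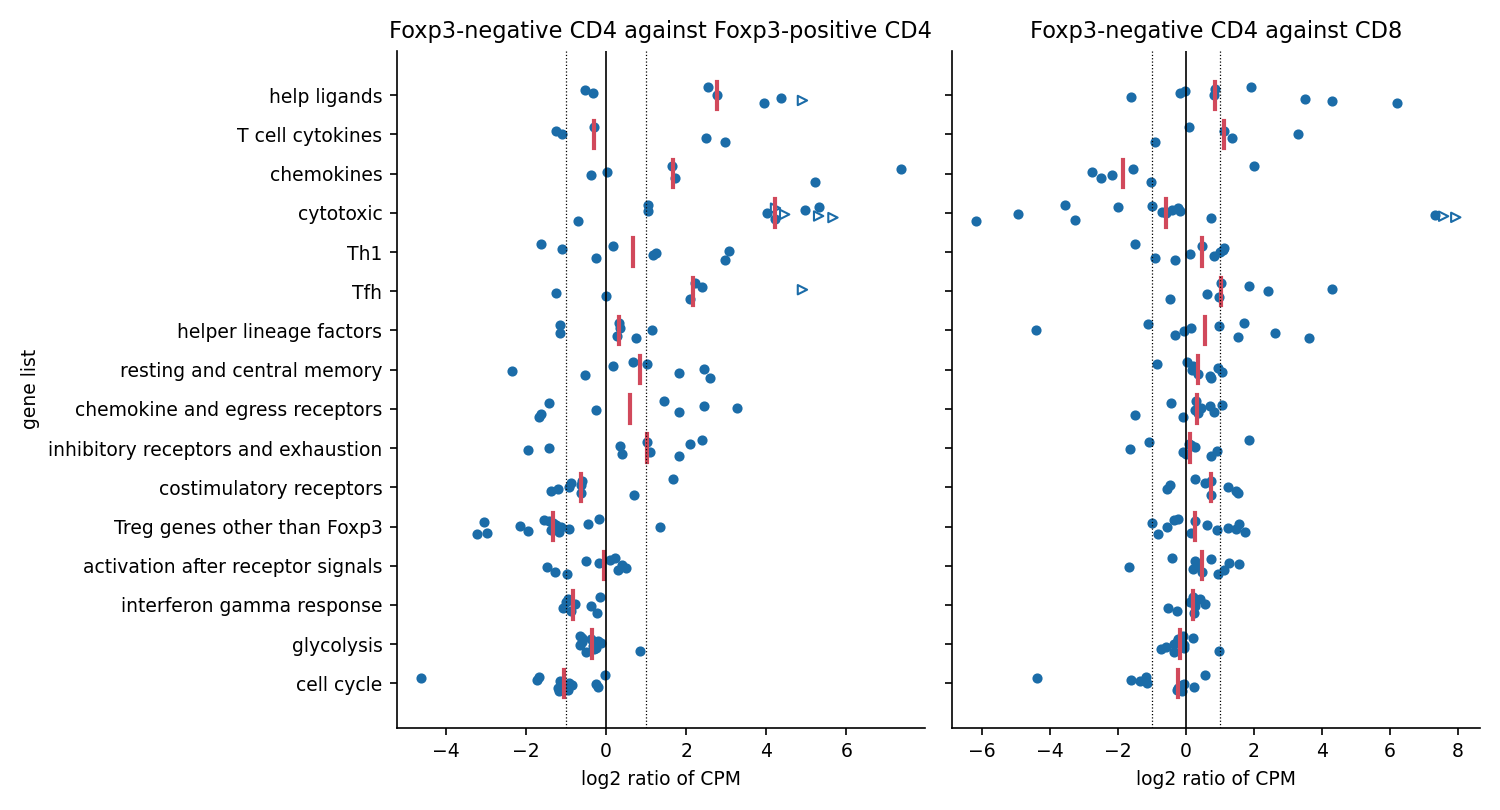
Each point is the log2 ratio of CPM of 1 gene of a list, members over Foxp3-positive CD4 (left) or CD8 T cells (right), with co-captured cells left out of every set; red bars are medians, open triangles are bounds against a set at 0, and dotted lines mark 2-fold. On the left panel medians of the genes compared lie to the right for help ligands and cytotoxic genes and to the left for regulatory and cell cycle genes. On the right panel the chemokine median lies to the left. Help ligands entered mainly through the members, as did 4 cytotoxic genes at 0 in Foxp3-positive cells. Summed over the whole list, help ligands stood at 1574 CPM in members and 1517 in Foxp3-positive cells.

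Over all genes with at least 100 UMIs and a UMI in at least 10% of the cells of the higher set, the highest ratios to Foxp3-positive cells, after Xcl1, belonged to Nrgn, neurogranin, and Tnfsf8. Nrgn had 241 UMIs in 21 members and 0 in Foxp3-positive cells, at least 82.4-fold higher, but it stood at 314 CPM in members and 307 in CD8 T cells, where 66 of 228 cells had it. Igfbp7, a secreted binding protein, had 103 UMIs in 20 members, 134 CPM, against 0 UMIs and 7.79 CPM, at least 35.2-fold above Foxp3-positive and 17.3 times (11.1–27.9) above CD8 T cells. Spp1, osteopontin, stood at 267 against 11.5 CPM with 37.1% in 1 cell, which was a co-captured barcode. Of the 10 members with Spp1, 7 were not co-captured, and the highest of these held 42 UMIs. AA467197 stood at 167 against 12.7 CPM. At the low end were H2-DMb2, Rrm2, Ikzf2, Il2ra and Fabp5, a fatty acid binding protein at 83.5 against 472 CPM. Without co-captured cells the ratios of Rrm2, Il2ra and Fabp5 were 0.0407, 0.107 and 0.392, and H2-DMb2 had 3 against 4 UMIs. Phgdh, the first enzyme of serine synthesis, stood at 50.9 against 237 CPM. Cst3 was also listed there at a ratio of 0.226, but at 1.07 (0.832–1.38) without co-captured cells. Against CD8 T cells, Igfbp7, Tnfsf8, Tnfsf11 and Izumo1r led, and the lowest were, in order, Gzma, Xist, Wdr95, Eomes, dsredexpress1, Gzmk, Rrm2 and Crtam. Ly6c2, at 0.355 of the CD8 level, stood at 0.0149 of it without co-captured cells, at 8.60 against 576 CPM. Chosen after their values were seen, Themis, a receptor signalling protein, stood at 96.6 against 5.09 CPM in Foxp3-positive cells and Ms4a4b at 954 against 181 CPM.

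Members were next compared among themselves. A cell was resting-side where UMIs of 6 resting genes, Tcf7, S1pr1 and Klf2 among them, outnumbered those of Icos, Pdcd1, Cxcr6, Ctla4, Tnfrsf4 and Tnfrsf18, and activated-side where they were fewer. Only 8 members were resting-side and 69 activated-side, with 5 in neither. Of 3551 genes compared, 283 were past 2-fold higher in resting-side cells (7.97%) and 499 lower (14.1%). The highest were H2-DMb1, Cxcl9 and Spi1, genes of myeloid cells, and they rested on co-captured barcodes. Without these, 5 cells faced 63, and 980 genes were compared, of which 48 were higher (4.90%) and 169 lower (17.2%). Cd28 then stood at 1106 against 282 CPM, a ratio of 3.93 (2.42–6.11), with 69.6% of the 23 UMIs in 1 cell. Lgals1, galectin 1 of activated T cells, stood at 240.5 against 2175 CPM, a ratio of 0.111 (0.0358–0.259). The 5 cells limit this comparison, and any gene in it can turn on 1 of them.

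A second division came from Prf1 and Tnfsf8, chosen after their values were seen. Of the 73 members without co-capture, 10 had Prf1 and 24 had Tnfsf8, and 1 had both. The other 40 members had neither gene. Cells with Prf1 were deep, with a median of 16101 UMIs, against 5522 in the 23 cells with Tnfsf8 alone and 4053 in the others, so ratios are also given for cells of at least 7000 UMIs, 10 against 8. Of 1797 genes compared, 143 were past 2-fold higher in Prf1 cells (7.96%) and 116 lower (6.46%), and in deep cells 137 (9.18%) and 82 (5.49%) of 1493.

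Cells with Prf1 carried inhibitory receptors and killing genes. All 10 had Lag3, Ifng, Cxcr6 and Tnfrsf4, and 9 had Pdcd1 and Klrd1. The level of Tnfrsf4 was nevertheless lower than in Tnfsf8 cells, at 298 against 688 CPM. Its ratio was 0.433 (0.310–0.600), or 0.371 in deep cells. Pdcd1 stood at 401 CPM in Prf1 cells, 79.9 in Tnfsf8 cells and 80.4 in cells with neither. The ratio between the first 2 was 5.02 (2.77–9.84), or 4.43 in deep cells. Tox stood at 365 against 67.6 CPM and Lag3 at 406 against 92.1, though Lag3 reached 523 CPM in cells with neither gene. Havcr2 stood at 169.5 CPM against 1 UMI. In all, 5 of 7 inhibitory genes and 8 of 9 cytotoxic genes compared were past 2-fold higher, against 7.96% of all genes compared. Of the 9, 4 were at 0 in Tnfsf8 cells and could be compared only through the Prf1 cells, so the count does not describe the list. Gzmd and Gzme were among these 4, with 87.3% and 81.5% of their UMIs in 1 cell. Nkg7 stood at 3092 against 491 CPM and Klrc1 at 247 against 30.7. Cells with neither gene had 1429 CPM of Nkg7. Among the 6 of these with at least 7000 UMIs, 6 had Nkg7, 5 Tox, 4 Pdcd1, 4 Lag3 and 2 Klrd1. For Ccl4 and Ccl5, at 647 against 12.3 and 1032 against 36.9 CPM, 1 cell held 63% and 64% of the Prf1 cells' UMIs. Glycolysis genes were past 2-fold higher for 6 of 11, among them Pgam1, a ratio of 3.72 (2.47–5.77), and Gapdh at 4541 against 2021 CPM. Serpine2, chosen after its values were seen, stood at 396 CPM in Prf1 cells and at 0 in Tnfsf8 cells.

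Cells with Tnfsf8 had more of Tnfsf11, Rora and Cxcr3 than cells with Prf1. Tnfsf11 stood at 313 CPM in them and 46.2 in Prf1 cells, a ratio of Prf1 to Tnfsf8 cells of 0.148 (0.0639–0.303), and 44.7 CPM in cells with neither. It was found in 9 of 23 Tnfsf8 cells and 5 of 10 Prf1 cells. Rora stood at 498 against 77.1 CPM and Cxcr3 at 270.3 against 30.8. Cells with neither gene lay between, at 205 CPM of Rora and 174 CPM of Cxcr3. Gata3 stood at 203 against 61.6 CPM, but 45.5% of the former lay in 1 cell, and without it the level was 118 CPM. Cells with neither gene had 125 CPM of Gata3. Itgb7, an integrin chain of gut and skin homing, had 38 UMIs against 0. Tcf7 was found in 12 of 24 Tnfsf8 cells and in 0 of 10 Prf1 cells, and S1pr1 in 12 and 1, with too few UMIs for a ratio. Emb, chosen after its values were seen, stood at 338 against 5.14 CPM, a ratio of 0.0152 (0.000378–0.0883), or 0.0222 in deep cells. In cells with neither gene Emb stood at 228 CPM, and Tcf7 was found in 10 of 40. The gap to Prf1 cells in Rora, Cxcr3, Gata3 and Emb was therefore not particular to Tnfsf8 cells. Rora, Cxcr3 and Tnfsf11 kept ratios of 0.160, 0.128 and 0.100 in deep cells. Early response genes were also higher in Tnfsf8 cells than in Prf1 cells. Of 6 dissociation stress genes compared, 4 were past 2-fold lower in Prf1 cells, against 6.46% of all genes compared. Cells with neither gene are not part of this comparison, so the gap is not read as particular to Tnfsf8 cells. Cd40lg stood at 46.2 CPM in Prf1 cells, 92.1 in Tnfsf8 cells and 49.1 in the others, from 9, 15 and 11 UMIs, too few to compare.

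**Figure D5:**
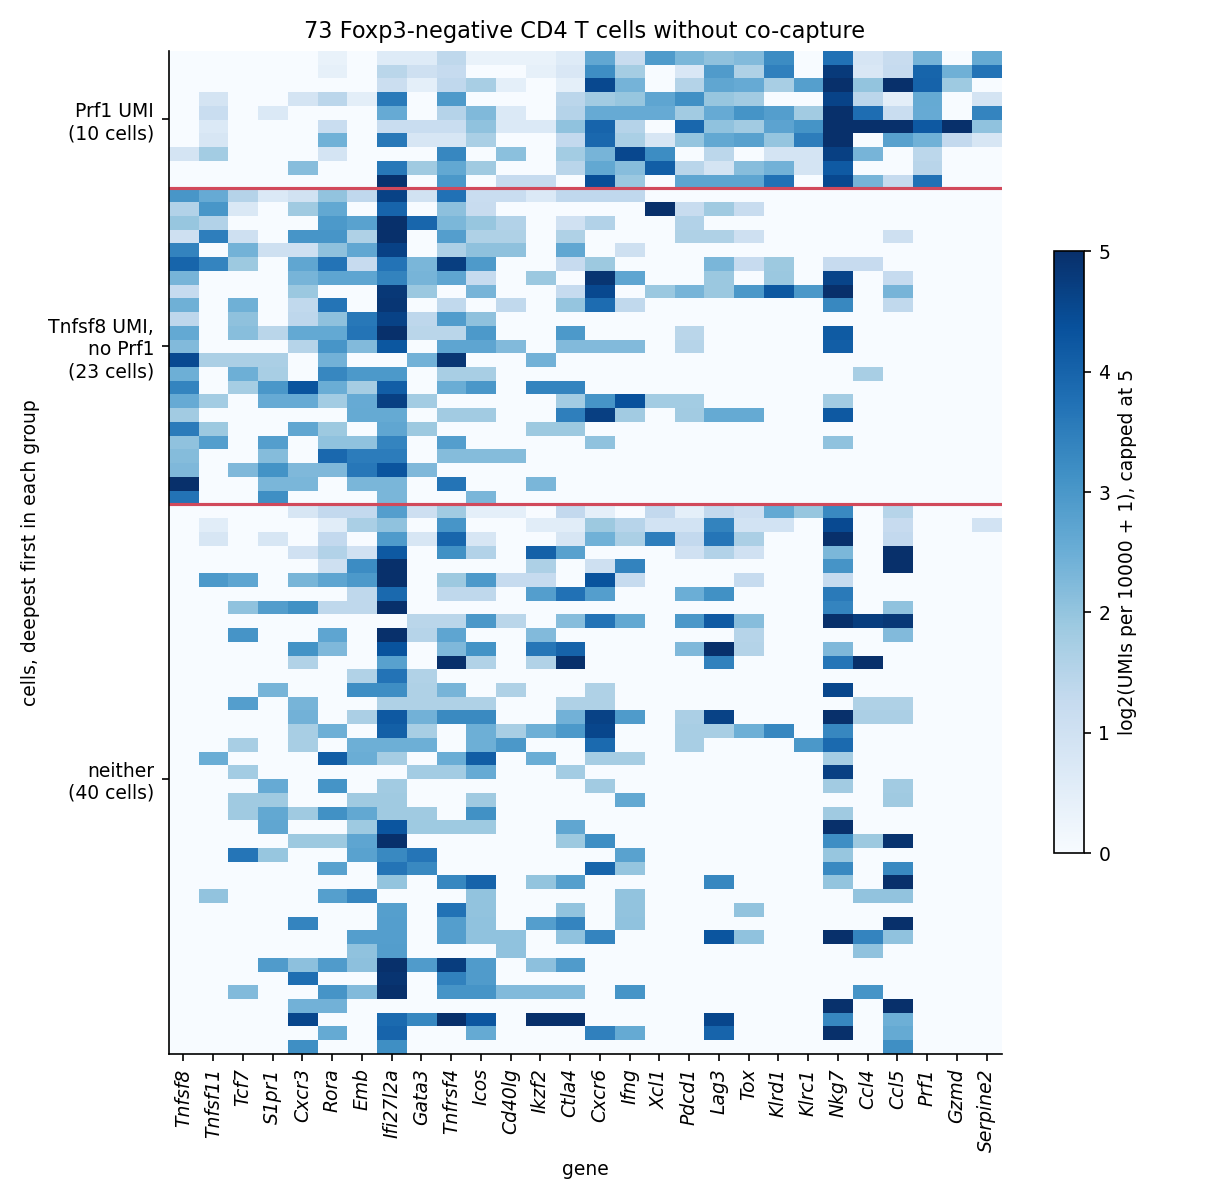
Rows are the 73 members without co-capture, deepest first within each of 3 groups (10 with Prf1, 23 with Tnfsf8 and no Prf1, 40 with neither), columns are 28 genes, and colour is log2 of UMIs per 10000 plus 1, capped at 5. Pdcd1, Lag3, Tox, Klrd1 and Nkg7 each show in at least 9 of the 10 cells of the upper block. In the same order they show in 8, 6, 5, 3 and 9 of 23 cells of the middle block. In the lower block they show in 10, 14, 11, 3 and 28 of 40 cells. In the middle block Rora shows in 19, Emb in 17, Cxcr3 in 16, Tcf7 in 12 and Tnfsf11 in 9 of 23 cells. In the lower block Rora shows in 20, Emb in 22, Cxcr3 in 18, Tcf7 in 10 and Tnfsf11 in 5 of 40 cells.

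Spatial barcodes were compared last. A member took the barcode with at least 10 UMIs and 2 times the next, which assigned 39 of 82: 7 to ZC1, 4 to ZC2 and 28 to ZC3, 71.8% (55.1–85.0). ZC3 took 93.2% of 2368 assigned cells of all kinds, 88.5% of 26 Foxp3-positive and 64.9% of 94 CD8 T cells. Free spatial UMIs were themselves 58.0% ZC3, so shares were also taken relative to them, with at least 30 spatial UMIs and 1.5 times the next. That assigned 55 members, 21 to ZC1, 17 to ZC2 and 17 to ZC3, so the leading barcode depended on the rule. Relative shares of ZC3 were 30.9% (19.1–44.8) in members, 34.5% in Foxp3-positive, 26.8% in CD8 T cells and 46.0% in all kept cells. The intervals of members and of the other T cells overlapped, and whether their shares differ was not tested.

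By relative barcode and without co-captured cells, 17, 16 and 17 members fell to ZC1, ZC2 and ZC3, with median depths of 3310, 7320.5 and 4270 UMIs. Lgals1 stood at 326 CPM (202–498) in ZC1, 2745 (2498–3011) in ZC2 and 2483 (2196–2799) in ZC3. Pdcd1 had 0 UMIs in ZC1 against 140 and 286 CPM. Prf1 was found in 0, 3 and 1 cells of ZC1, ZC2 and ZC3, and Xcl1 in 0, 5 and 1, with 2 UMIs in ZC3, so neither sets ZC1 apart from ZC3. Tcf7 was highest in ZC1, at 233 CPM (130–384), against 36.5 and 73.9. Isg15, an interferon-induced gene, stood at 15.5, 116 and 295 CPM. Tnfsf8 had 248, 91.3 and 222 CPM and showed no such order. These sets hold few cells, ZC1 cells were the shallowest, and the part of depth was not tested.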

How the data were processed

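Gene expression and spatial barcodes of immune cells from a 16-day B78ChOVA melanoma were measured with 10x Genomics droplets. Per the submitters' processing notes, Cell Ranger 4.0.0 and mm10 were used; how reads were aligned is not stated there. The authors deposited UMI counts for every barcode, without a cell filter, as whole numbers over 31055 gene and 3 spatial features; rows of 36 repeated symbols were summed. Free RNA was profiled by adding up 68497 barcodes of 10 to 100 UMIs.

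Members were chosen by the gate given in the report. The members, the gene lists and the comparisons were chosen with earlier results of these data known. Counts were summed over cells and scaled to CPM with exact Poisson intervals; ratios carry exact conditional binomial intervals, all at 95%, and where a set had 0 counts its floor was 3 counts over all its cells. Intervals and floors cover counting error only. With 1 library and no replicates no test was possible. Detection at equal depth was taken as the exact expectation over draws of 1000 UMIs (hypergeometric) and, as fixed beforehand, as 1 random draw. No doublet caller was run: barcodes with at least 10 UMIs of 5 myeloid genes, 100 of 4 class II genes or 10 of melanoma genes were called co-captured, a rule added after the data were seen, and were kept in the main values. A T cell joined to another T cell is not marked by this rule.

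Genes named are the 4 markers, any member of the lists of factors, cytokines, ligands and receptors, the 2 highest and 2 lowest of every other list, and, over all genes, the 10 highest and 10 lowest ratios among those reaching 100 UMIs and with a UMI in at least 10% of cells of the higher set. Klrc1, Klrd1, Nkg7, Mki67, Lgals1, Gapdh, Pgam1 and the lineage markers at 0 were named after their values were seen. Of 317 list genes, 3 were missing from the features (Cd244a, Trgc1 and Trgc2). Alternatives changed the limits on UMIs, genes, mitochondrial share, CD3, Cd4, C1q and Foxp3-related genes, the depth, the averaging, the fold, the gene filter, the spatial assignment and the treatment of free RNA. Scripts for the ratios were tested on simulated data first. Python was version 3.11.15, with scipy 1.17.1 for intervals, numpy 2.4.6 and pandas 2.3.3 for tables and matplotlib 3.10.9 for plots. Some genes of the lists and rules are not reported here by name. No raw reads were analysed here.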

Additional observations from a re-analysis of the deposited data

How the results depend on the processing

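No paired analysis was possible because the samples are 2 libraries of the same cells and no replicate was used. Of the values that answer a comparison, 62 alternatives moved by no more than the set limit and 20 moved further; of those for single genes and lists, 572 stayed, 90 moved and 4 changed direction. The number of members was 47 with at least 2 Cd4 UMIs and 48 without Il2ra and Ikzf2. The count of genes past 2-fold against Foxp3-positive cells, 526, became 53 with cells thinned to 1000 UMIs, 1350 for genes of at least 10 UMIs, 143 for at least 100 UMIs and 1479 at a fold of 1.5. Against CD8 T cells, 909 became 581 with at most 20000 UMIs per cell, 129 thinned, 289 for genes of at least 100 UMIs and 2324 at a fold of 1.5. For resting-side against activated-side cells, 782 became 521 with at least 2 Cd4 UMIs, 363 with at most 20000 UMIs per cell, 205 without Il2ra and Ikzf2, 217 without co-captured cells, 60 thinned, 148 for genes of at least 100 UMIs and 1546 at a fold of 1.5; fewer genes could be compared in the thinned cells and under the stricter filter. The split into higher and lower genes moved without Il2ra and Ikzf2, to 190 and 446 against Foxp3-positive and 450 and 804 against CD8 T cells, with at most 20000 UMIs per cell, to 317 and 264 against CD8, and with the mean of CPM per cell, to 329 and 440 against Foxp3-positive cells. The ZC3 share of members was 30.9% relative to free barcodes. The share of members with Tnfsf8 in 1 random draw of 1000 UMIs was 11.0%, against 21.6% with C1q under 2000 CPM and 23.3% at 3000 UMIs, while the expectation over draws of 1000 was 14.3%. Each change of the cells also made a new random draw. The 73 members without co-capture gave 15.1% in their draw, with an expectation of 14.4%. The parts of the C1q limit and of the draw in the 21.6% were not tested. Direction changed for Cxcl10 against CD8 T cells, at a log2 ratio of -0.61 without Il2ra and Ikzf2, for the chemokine median against Foxp3-positive cells, at -0.15 with the mean of CPM per cell and -1.09 thinned, where 3 genes remained to compare, and for the median of help ligands, at -0.56 thinned, where 1 gene could be compared. The cause was not tested for Cxcl10 and for the mean per cell. Depth limits every statement on single cells: a member at the median of 5372.5 UMIs can lack a UMI of a gene it expresses.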

Other observations

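Immunoglobulin heavy chain mRNA was lower in members than in Foxp3-positive cells. Ighm, the heavy chain of IgM, stood at 57.4 CPM in members and 276 in Foxp3-positive cells, a ratio of 0.208 (0.147–0.289), and at 39.9 in CD8 T cells and 124 in free RNA. It was found in 22 of 82 members and 42 of 50 Foxp3-positive cells, the deeper set, and without co-captured cells the ratio was 0.206. The rule for co-capture uses no immunoglobulin gene. The parts of depth and of RNA from B cells were not tested. Igkc, the kappa light chain, had 6 UMIs in 4 members against 79 in 11 Foxp3-positive cells. Among cytokine receptors 2 of 16 compared with Foxp3-positive cells were past 2-fold higher and 1 lower, with a median ratio of 1.03. Ifngr1, a chain of the interferon gamma receptor, stood at 314 CPM in members, 445 in Foxp3-positive and 188 in CD8 T cells, and Il2rb, shared by the receptors for interleukins 2 and 15, at 281, 328 and 297 CPM.

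Receptor variable genes were sparse: 19 of the 73 members without co-capture had a V gene UMI, 27 UMIs in all over 18 of 163 V genes. Trbv2, a beta chain variable gene chosen after its values were seen, had 5 UMIs in 4 members. All 4 were among the 6 members with both Prf1 and Xcl1. These 6 were deep cells, with 11591 to 38173 UMIs against a median of 4836 in the 73. The part of depth was not tested. Trbv2 was found in 0 Foxp3-positive cells and 1 CD8 T cell. The reporter feature dsredexpress1 was found in 0 of 82 members, which allows a share of cells with a UMI of up to 3.66%, in 0 of 50 Foxp3-positive cells and in 39 of 228 CD8 T cells. Xist was at 0 in both CD4 sets and found in 38 CD8 T cells, 36 of them with the reporter. A Y-linked UMI was found in 65 of 82 members, 39 of 50 Foxp3-positive cells, 3 of the 39 CD8 T cells with the reporter and 146 of the 189 without it. The labels used here do not mention a reporter or transferred cells.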
